A study of Mus musculus with 6 samples.

Results

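Respiratory complex I was followed through 45 Nduf genes, out of 13843 genes measured, in the ventricles of mouse embryos with and without a deletion of Vhl in the heart. The members were chosen by name alone, as the genes whose symbol begins with Nduf, without Ndufa4 and Ndufa4l2. They comprised 36 nuclear subunits, 8 assembly factors (the Ndufaf genes) and Ndufb4c, which GENCODE M21 lists as a processed pseudogene. Of the 36 subunits, 16 belong to the matrix arm of the enzyme, 19 to the membrane arm and 1, Ndufab1, to both. The annotation holds 51 Nduf genes, of which 47 had a row, and the other 4 were not analysed here.

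Each of the 6 RNA-seq libraries came from the ventricle of 1 embryo at E12.5 (midgestation) on a C57BL/6 background, and polyadenylated RNA was read. The 3 control embryos had the genotype Vhl(flox/flox) with Nkx2.5(+/+), and the 3 embryos labelled knockout had Vhl(flox/flox) with Nkx2.5(Cre/+). Both groups thus carried floxed Vhl, whose product marks hypoxia-inducible factors (HIF) for degradation. Cre is made from the Nkx2-5 locus, in heart progenitors and the cells that come from them, so cells of other origin keep Vhl. No group with Cre and unfloxed Vhl was analysed here, and loss of Vhl cannot be told apart from the Cre allele or from having 1 changed Nkx2-5 allele. Litter 1 gave control 1 and knockout 1, and litter 2 gave control 2 and knockout 2, while control 3 and knockout 3 had no sequenced littermate (litters 3 and 4 in the labels).

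Vhl checked the labels. Its normalized signal (reads per gene, scaled by 1 factor per library to a common size) was 33.7, 36.3 and 38.6 in controls 1 to 3, 11.1 in knockout 1, 10.3 in knockout 2 and 34.5 in the library whose label is knockout 3. Hif1a, the gene of the HIF-1 alpha subunit, stood at 457, 405 and 447 in the controls, 185 and 163 for knockouts 1 and 2 and 473 in knockout 3. For Vhl, knockout 3 lay inside the control range and went against its label. The comparison below therefore sets the 3 controls against knockouts 1 and 2 and shows knockout 3 apart, with the fit of all 6 libraries beside it. Depth ran from 9067805 to 12592902 reads per library. The 8 cardiomyocyte markers summed to between 27181 and 33538 in the controls, 29230 in knockout 1, 27030 in knockout 2 and 30741 in knockout 3. Heart muscle was thus present in all 6 libraries, but this sum does not tell ventricle from atrium. The 3 measured atrial markers summed to between 4690 and 5591 in the controls, 7519 in knockout 1, 6071 in knockout 2 and 3973 in knockout 3.

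Complex I takes electrons from NADH and hands them to ubiquinone while it pumps protons across the inner mitochondrial membrane. The matrix arm binds NADH, holds the flavin and the chain of iron-sulfur clusters, and reaches down to the ubiquinone site. The membrane arm holds the proton pumps, whose central subunits are encoded by mitochondrial DNA, while the core of the matrix arm and all other subunits are encoded in the nucleus. Assembly factors help to build the enzyme and are absent from the finished one. In the embryonic heart, reliance on this chain is known to grow as the muscle cells mature.

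Ndufv3 rose in knockouts 1 and 2, and no other Nduf gene passed the test. Most of the others sat slightly lower than in the controls: 38 of 45 had a log2 difference below 0, against 51.8% of all genes, and the median was -0.11, against -0.01 over all genes. The test was limma on log2(value + 1), adjusted by Benjamini-Hochberg over all genes, with a threshold of 0.05. It called 1 member higher, where 3.01% of all genes were called higher, and 0 members lower, where 1.24% were called lower (4.25% either way). At an unadjusted p under 0.05 there were 11 members lower and 1 higher, 26.7% of the members against 17.8% of all genes. Both knockouts lay below all 3 controls for 17 of 45 members, 37.8%, where 17.0% of all genes did. Both lay above all controls for 2 members, Ndufv3 and Ndufb7, where 18.1% of all genes did. The groups overlapped for the other 26. In ventricle tissue, fewer cells of a type and less RNA per cell cannot be told apart, and these are relative levels.

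**Figure D1:**
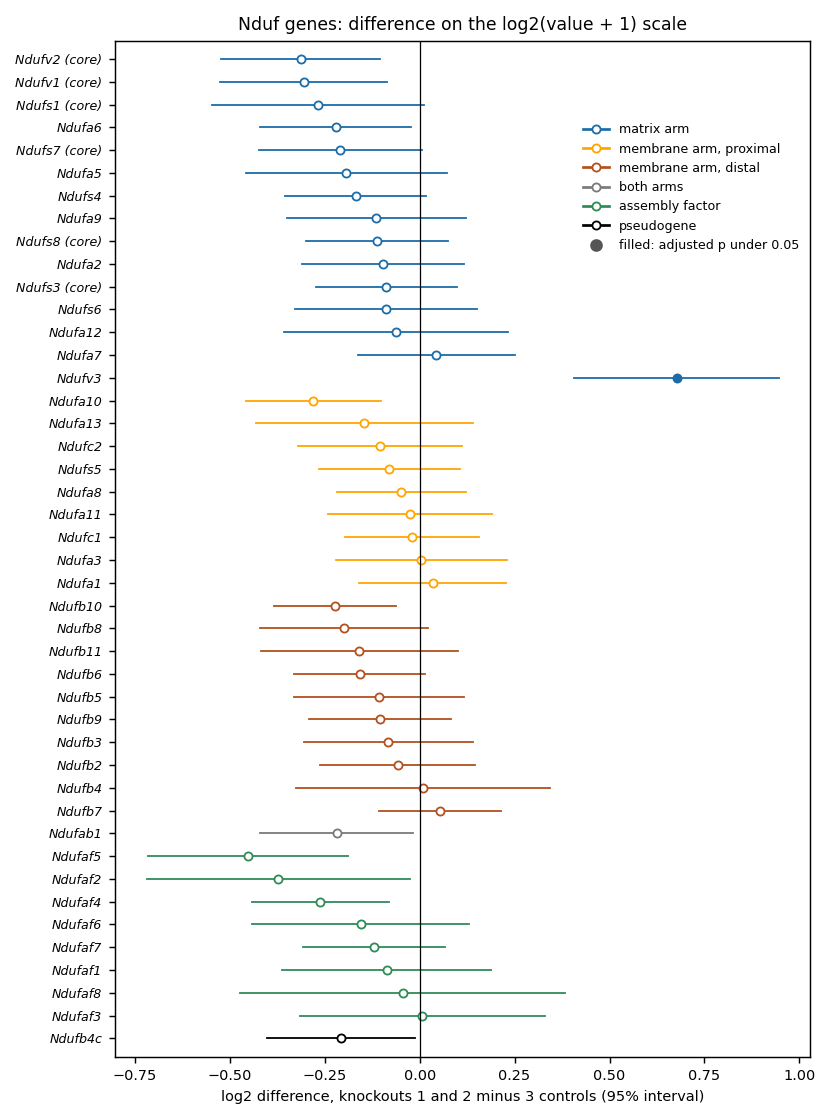
The log2 difference of 44 of the 45 Nduf genes (horizontal axis, knockouts 1 and 2 minus the 3 controls on the log2(value + 1) scale) with its 95% interval from limma, coloured by class; a filled point marks an adjusted p under 0.05. Ndufv3 at 0.68 is the filled point, and 37 of the 44 points lie left of 0.

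Ndufv3 (ENSMUSG00000024038, chromosome 17, 31520115 to 31531331, plus strand, GRCm38) encodes an accessory subunit at the NADH-binding tip of the matrix arm. Its signal was 96.7, 103 and 94.5 in controls 1 to 3, 181 in knockout 1, 137 in knockout 2 and 97.5 in the library labelled knockout 3. Knockouts 1 and 2 lay above every control, with knockout 1 the higher, and knockout 3 lay within the control range. The control mean was 98.0 ± 4.28 (SD, n = 3), and knockouts 1 and 2 averaged 1.62 times that level. The log2 difference was 0.68 ± 0.12 (SE; 95% interval 0.41 to 0.95; limma adjusted p = 0.020). Within litters 1 and 2, with the litter as a block, it was 0.65 (limma adjusted p = 0.0024). It was not called with all 6 libraries as labelled (0.45, limma adjusted p = 0.77), a fit that called 0 of all genes. Nor was it called by limma without trend (0.68, adjusted p = 0.090) or without knockout 1 (0.48, adjusted p = 0.068), while without knockout 2 it was 0.88 (adjusted p = 0.0065). Leaving out 1 control in turn gave adjusted p values of 0.054, 0.066 and 0.060 for controls 1, 2 and 3, so each of these libraries decides the call.

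Ndufv3 lies 4.675 Mb from Nkx2-5, the locus that carries Cre, on the same chromosome. Of 327 genes within 10 Mb of Nkx2-5, 13 were called higher and 6 lower, 5.81% in all, and on the rest of chromosome 17 the share was 4.64% of 323 genes. The strain from which sequence linked to the Cre allele came is not given in the sources used here, and linked alleles cannot be told apart from genotype in this design. Ndufb10, at 2.114 Mb from Nkx2-5, had a log2 difference of -0.22 and Ndufa7, at 6.98 Mb, one of 0.04; neither passed the test.

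The promoters of 3 members are shown because Ndufv3 was called in the 5-library test and Ndufaf5 and Ndufv1 (below) in the litter comparison. Each is the longest stretch without an annotated exon in the 250 bases before the RefSeq start (GRCm38.p6), read 5′ to 3′ on the gene's strand. Capitals mark ACGTG or GCGTG on either strand, the core that HIF binds; ACGTG and its reverse complement CACGT overlap where they form a palindrome.
Ndufv3, chr17:31519981-31520114, plus strand: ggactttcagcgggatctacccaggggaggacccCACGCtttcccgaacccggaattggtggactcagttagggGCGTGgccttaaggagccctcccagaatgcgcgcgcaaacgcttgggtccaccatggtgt
Ndufaf5, chr2:140170565-140170645, plus strand: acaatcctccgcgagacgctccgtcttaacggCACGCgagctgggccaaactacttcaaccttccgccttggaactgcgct
Ndufv1, chr19:4012807-4013005, minus strand: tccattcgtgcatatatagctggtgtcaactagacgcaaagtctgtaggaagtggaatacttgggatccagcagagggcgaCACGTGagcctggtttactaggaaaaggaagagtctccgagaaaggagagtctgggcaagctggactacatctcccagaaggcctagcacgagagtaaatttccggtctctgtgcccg

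In the Ndufv3 stretch the core GCGTG begins 60 bases before the start on the gene's own strand, and once more 100 bases before it on the other strand. The Ndufaf5 stretch holds GCGTG 49 bases before the start, on the other strand, and the Ndufv1 stretch holds ACGTG on both strands, 168 bases before the start. These short words are common. One or the other was found within 250 bases before and 50 after the start in 22 of the 39 members with a RefSeq window, 56.4%, against 43.8% of 32851 windows of all genes. ACGTG alone was in 17.9% of members and 19.6% of windows, and GCGTG in 51.3% and 32.4%. Members called and not called both hold them, so a match is a description of the letters only. The core of the YY1 motif, AAGATGGC, was found in 8 of the 39 members (20.5%, against 2.75% of all windows). The core of NRF-1, GCATGCGC, was in 5 (12.8%, against 2.71%), among them Ndufaf5 just after its start. That of GABP, CCGGAAG, was in 6 (15.4%, against 8.86%). All were searched on both strands. YY1, NRF-1 and GABP are regulators known for acting on nuclear genes of the respiratory chain.

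**Figure D2:**
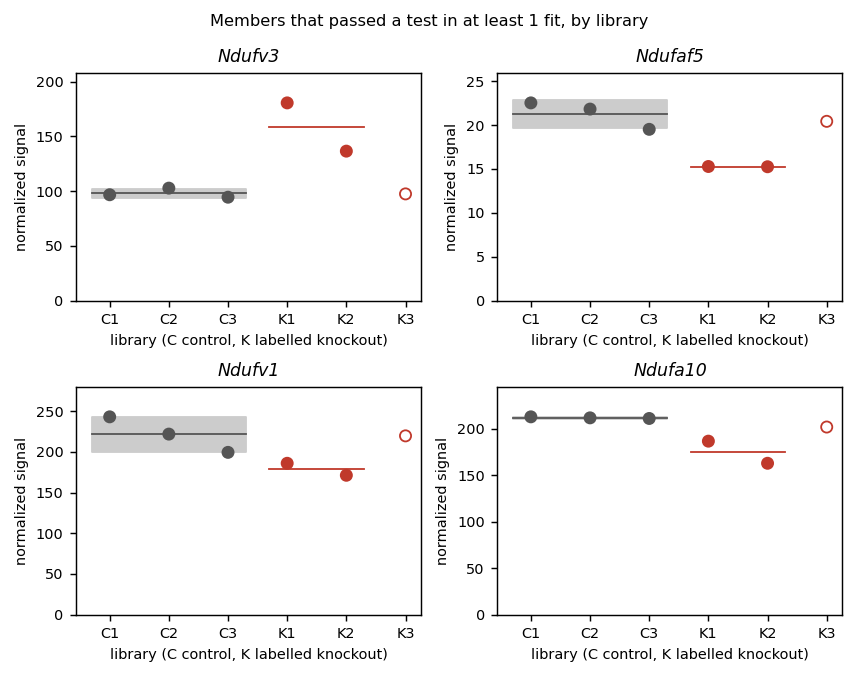
Normalized signal (vertical axis) in each library for Ndufv3, Ndufaf5, Ndufv1 and Ndufa10, with control libraries in grey, knockouts 1 and 2 in red and the library labelled knockout 3 as an open point; lines are group means and the grey band is the control mean ± SD (n = 3). Ndufv3 is higher and the other 3 lower in knockouts 1 and 2 than in every control.

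The 7 nuclear core subunits, which carry the catalytic path from NADH to ubiquinone, all had lower means in knockouts 1 and 2, with a median log2 difference of -0.24. None of the 7 passed the 5-library test. For 5 of them both knockouts lay below all controls, 71.4%, where 17.0% of all genes did. Ndufv1, the subunit that binds NADH and the flavin, stood at 243, 222 and 199 in the controls, 186 and 171 for knockouts 1 and 2, and 219.7 in knockout 3. The groups did not overlap, although control 3 was nearer to knockout 1 than to control 1. Its difference was -0.31 ± 0.09 (SE; limma adjusted p = 0.14), and within litters 1 and 2 it was -0.38 (limma adjusted p = 0.013). Ndufv2, which holds an iron-sulfur cluster beside Ndufv1, had 195, 181 and 197 in the controls, 168 and 141 for knockouts 1 and 2, and 177 in knockout 3. Its difference was -0.31 ± 0.09 (SE; limma adjusted p = 0.11), with both knockouts below the controls and knockout 2 the lowest of the 6.

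Ndufs1, the subunit with the longest part of the iron-sulfur chain, had 438, 384 and 387 in the controls, 382 and 292 for knockouts 1 and 2, and 390.1 in knockout 3. Knockout 1 lay just under the lowest control, and the difference of -0.27 (95% interval -0.55 to 0.01) came mainly from knockout 2. Without knockout 2 it was -0.08, and without knockout 1 it was -0.46. Ndufs7, which carries the last cluster before ubiquinone, differed by -0.21 with no overlap. Ndufs8, another cluster protein, differed by -0.11 and Ndufs3, a core subunit without a cluster, by -0.09, both with overlap.

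The other 9 matrix arm subunits had a median log2 difference of -0.10, with 7 below 0. Apart from Ndufv3, the lowest p was that of Ndufa6, a small subunit to which the acyl carrier protein Ndufab1 binds. It had 76.2, 67.0 and 70.1 in the controls and 63.4 and 58.2 for knockouts 1 and 2, a difference of -0.22 ± 0.09 (SE; limma adjusted p = 0.23). Ndufab1 itself, which sits in both arms and also serves mitochondrial fatty acid synthesis, had 132, 113 and 119 in the controls and 109 and 99.6 for knockouts 1 and 2, again -0.22 with no overlap. Ndufs4, whose loss causes a Leigh-like disease in mice, had 92.3, 90.5 and 93.2 in the controls, 87.4 and 76.4 for knockouts 1 and 2 and 83.2 in knockout 3, a difference of -0.17 (limma adjusted p = 0.33). Ndufa7 was the 1 matrix arm subunit besides Ndufv3 with a difference above 0, at 0.04 (95% interval -0.16 to 0.25).

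Over the 19 membrane arm subunits the median was -0.08, with 15 below 0, and -0.14 over the 16 of the matrix arm, with 14 below 0. Outside the core, the 9 matrix arm subunits had a median of -0.10. Medians were -0.05 in the 9 subunits of the proximal part of the membrane arm and -0.11 in the 10 of the distal part. No membrane arm subunit was called by limma, and the 95% intervals together reached from -0.46 to 0.34. Ndufa10, an accessory subunit with a kinase-like fold on the matrix face of the proximal part, was the farthest from its controls. It stood at 213, 212 and 211 in the controls, 187 and 163 for knockouts 1 and 2, and 202 in knockout 3. The controls were close together, all knockout libraries lay below them, and the difference was -0.28 ± 0.08 (SE; limma adjusted p = 0.099). DESeq2 on the recovered reads called it lower (-0.28, DESeq2 adjusted p = 0.041), where 2.03% of the genes it tested were called lower. Ndufb10, in the distal part, had 97.0, 97.8 and 92.4 in the controls, 83.4 and 80.4 for knockouts 1 and 2, and 94.3 in knockout 3. Its groups did not overlap, and the difference was -0.22 ± 0.07 (SE; limma adjusted p = 0.14). Ndufb7 was higher in both knockouts than in any control, by little: 83.0 and 82.5 against 81.9, 80.4 and 76.9.

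The 8 assembly factors had a median difference of -0.14, beside -0.11 for the 36 subunits, with 7 of 8 below 0. Both knockouts lay below all controls for 5 of the 8, 62.5%, where 17.0% of all genes did. Ndufaf5, which hydroxylates an arginine of Ndufs7 during assembly, had 22.5, 21.8 and 19.5 in the controls, 15.3 and 15.2 for knockouts 1 and 2, and 20.4 in knockout 3. The knockouts were alike and lay clear of the controls, with a difference of -0.45 ± 0.11 (SE; limma adjusted p = 0.075). In litters 1 and 2 it was -0.51 (limma adjusted p = 0.033). That litter comparison called 1 member higher, Ndufv3, and 2 lower, Ndufaf5 and Ndufv1, where 4.92% of all genes were called higher and 3.21% lower, and had 1 residual degree of freedom. Ndufaf8, the partner protein of Ndufaf5, was the lowest member of all at 7.24 ± 1.22 (SD, n = 3). Its interval was wide, -0.47 to 0.38, so these libraries can say little of it.

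Ndufaf4, which acts in building the part of the matrix arm around ubiquinone, had 61.4, 56.8 and 59.4 in the controls, 47.9 and 50.5 for knockouts 1 and 2, and 62.3 in knockout 3, a difference of -0.26 ± 0.08 (SE; limma adjusted p = 0.12). Ndufaf3, its partner, showed no such difference (0.01, interval -0.32 to 0.33). Ndufaf2, a relative of subunit Ndufa12 that acts late in assembly, had 11.3, 14.3 and 13.9 in the controls and 10.5 and 9.38 for knockouts 1 and 2. Its difference was -0.37 ± 0.15 (SE; limma adjusted p = 0.25). Ndufaf6 differed by -0.16 and Ndufaf7, a methyltransferase of the matrix, by -0.12, both without overlap and neither called. Ndufaf1, a factor for the membrane arm, differed by -0.09 with overlap.

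Knockouts 1 and 2 were not alike in their subunits. The median deviation of the 45 members from their control means was -0.01 in knockout 1 and -0.22 in knockout 2, beside -0.02 in the library labelled knockout 3 and 0.05, -0.00095 and -0.03 in controls 1 to 3. Knockout 1 was below the control mean for 25 members (55.6%, against 50.7% of all genes), knockout 2 for 42 (93.3%, against 50.1%) and knockout 3 for 33 (73.3%, against 49.5%). Knockout 1 was below the lowest control for 18 members (40.0%, against 31.2% of all genes), knockout 2 for 36 (80.0%, against 31.0%) and knockout 3 for 17 (37.8%, against 21.7%). By these counts, knockout 3, whose Vhl was at control level, was below the control mean for more members than knockout 1. Knockout 2 was the lower of the pair for 40 of 45 members, 88.9%, against 52.0% of all genes. Their littermates were ordered the same way: control 2 was below control 1 for 35 members, 77.8%, against 49.4% of all genes. Summed over the members, the signal was 4606, 4376 and 4333 in the controls, 4343 in knockout 1, 3721 in knockout 2 and 4318 in knockout 3. Knockout 1 lay within the control range, knockout 3 just under it and knockout 2 well below it. Without knockout 2 the median difference of the members from the 3 controls was -0.01, with 25 below 0, and without knockout 1 it was -0.22, with 42 below 0. Against its own littermate, each knockout was lower. In litter 1, knockout 1 was below control 1 for 34 of 45 members (75.6%, against 49.5% of all genes), with a median log2 difference of -0.09. In litter 2, knockout 2 was below control 2 for 42 (93.3%, against 51.3%), with a median of -0.19. With the litter as a block, 42 of 45 members were below 0 (93.3%, against 51.2% of all genes) and their median was -0.13. The median of the members against the 3 controls thus depends on knockout 2. Within litters the median was below 0 in both, with the larger difference in litter 2 (not tested). Control 1 had the highest median deviation of the controls, 0.05. Control 2 was below control 1 for 35 members, beside 34 for knockout 1, so the count in litter 1 does not set knockout 1 apart from a control.

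By class, the membrane arm had a median deviation of 0.04 in knockout 1 and -0.20 in knockout 2, and the matrix arm outside the core 0.03 and -0.23. The core subunits had -0.11 and -0.36. The assembly factors had -0.18 in knockout 1 and -0.19 in knockout 2, and knockout 2 was the lower for 5 of 8. These differences between classes were not tested, since members are not replicates. Over the 45 members, the deviations in knockout 1 and knockout 2 had a Spearman rho of 0.55, and over all genes one of 0.48; the deviations share the control libraries, so these are given as descriptions.

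**Figure D3:**
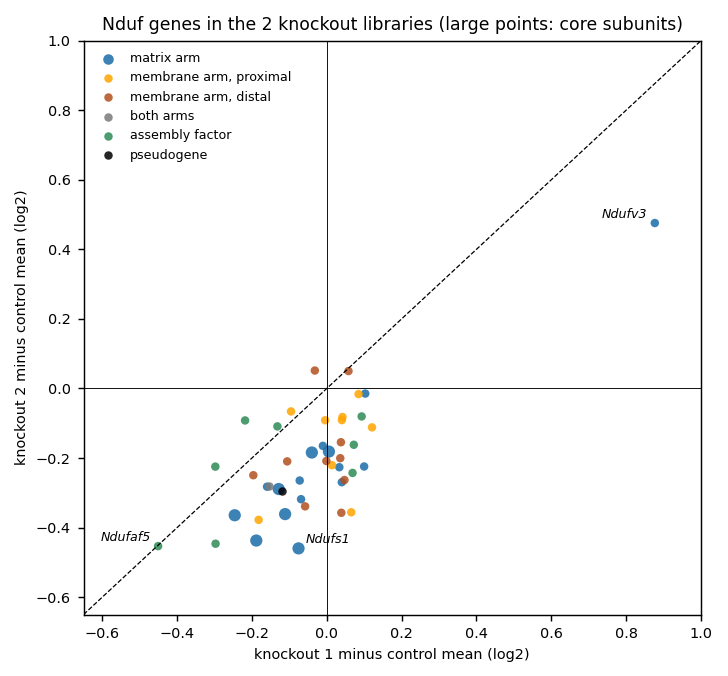
Deviation from the control mean (log2) in knockout 1 (horizontal axis) and knockout 2 (vertical axis) for the 45 Nduf genes, coloured by class, with core subunits as large points and a dashed line where both are equal. For 40 of the 45 genes the point lies below the dashed line, and Ndufv3 stands apart at the upper right.

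**Figure D4:**
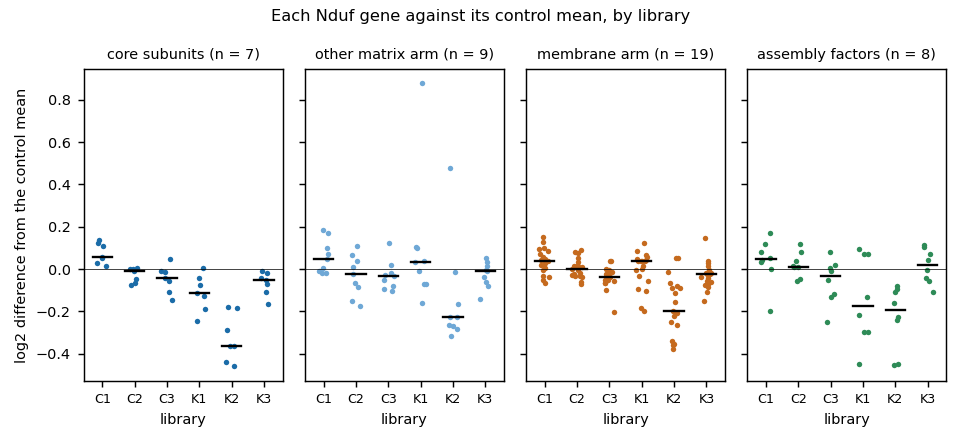
Deviation of each Nduf gene from its control mean (log2, vertical axis) in controls (C1 to C3) and libraries labelled knockout (K1 to K3), for 4 classes; bars are medians. Of the 2 knockouts compared, the core subunits and assembly factors have medians below 0 in both K1 and K2, the other classes in K2 but not in K1, and the medians of K3 lie close to those of the controls.

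In the library labelled knockout 3, 27 of the 45 members lay inside the control range, 60.0%, against 56.1% of all genes. Of the others, 17 lay below it and 1, Ndufaf4, above, which is 37.8% and 2.22% of the members against 21.7% and 22.2% of all genes. With all 6 libraries as labelled, limma called 0 of all 13843 genes, the members among them, with a smallest adjusted p of 0.77. An unadjusted p under 0.05 was found for 4 members, 8.89%, against 6.21% of all genes. In that fit 37 of 45 members were below 0, 82.2%, against 51.0% of all genes, and the median was -0.09.

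Among the subunits, those with more signal tended to have the lower log2 differences. Across the 36, the control level and the log2 difference had a Spearman rho of -0.64, against -0.04 across all genes, and transcript length and difference one of -0.51, against -0.11 across 13675 genes. The points share the same 5 libraries, and the control values enter both the level and the difference, so these are descriptions. The relation of level to length was not measured. Per kb of transcript, Ndufb9 ranked 2 of 36 in controls (231 ± 5.74, SD, n = 3), with a difference of -0.10. Ndufb5 ranked 3 of 36 at 229.9 ± 5.47 with the median transcript length, but 32 of 36 with the union of its exons. Ndufb4 (13.9), Ndufb2 (30.2) and Ndufab1 (49.6) were the lowest by the same length. With the union of exons, Ndufb4 and Ndufb2 stayed the lowest, at 36 and 35 of 36, and Ndufb7 took rank 34 from Ndufab1, which ranked 33. Ndufb4 and the pseudogene Ndufb4c are near-identical copies between which reads may be divided, and their split is uncertain. Ndufb4c was at 52.3, 52.2 and 52.0 in the controls and 47.9 and 42.3 for knockouts 1 and 2. Together the copies had 67.2, 66.1 and 63.6 in the controls and 61.0 and 56.3 for knockouts 1 and 2. The libraries did not mark strand, and exons that overlap another gene make 39.0% of Ndufb6 (with Smim27), 30.0% of Ndufa13 (with Tssk6) and 28.6% of Ndufb9 (with Gm49356), so these values may hold reads of both.

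The 7 mitochondrially encoded subunits, which form the core of the membrane arm, were lower as well. All 7 were below 0, with a median of -0.45. By limma's test 3 of the 7 fell, where 1.24% of all genes were called lower: mt-Nd5 (-0.68, adjusted p = 0.028), mt-Nd6 (-0.63, adjusted p = 0.012) and mt-Nd4l (-0.49, adjusted p = 0.025). For these 7, overlap with neighbouring genes was not measured, and the strand of a read is unknown. Values such as that of mt-Nd6 may thus hold reads of a neighbour, and the 3 calls may not be separate. mt-Nd5, a proton-pumping subunit, had 4107, 4502 and 4496 in the controls, 2555 and 2913 for knockouts 1 and 2, and 4647 in knockout 3. The median deviation of the 7 was -0.44 in knockout 1, -0.46 in knockout 2 and 0.10 in knockout 3. Of 11 other assembly factors of complex I, 8 were below 0 and 0 were called, with a median of -0.09. Acad9, which works with Ndufaf1 and Ecsit on the membrane arm, differed by -0.13 and Ecsit by 0.18. Of 10 regulators of nuclear respiratory genes 0 were called by the 5-library test. In litters 1 and 2, 2 of the 10 were called lower, where 3.21% of all genes were. They were Ppargc1a, the coactivator of mitochondrial gene expression (-0.41, limma adjusted p = 0.016), and its relative Ppargc1b (-0.69, limma adjusted p = 0.0085). For Ppargc1b the groups overlapped: control 3, absent from the litter fit, had 12.7, below the 13.7 of knockout 1. In the 5-library test Ppargc1b differed by -0.45 (limma adjusted p = 0.34) and Ppargc1a by -0.46 (limma adjusted p = 0.102).

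The 41 measured nuclear genes of complexes II to V had a median of -0.13, with 38 below 0, beside -0.11 for the complex I subunits. Their median deviation was -0.03 in knockout 1 and -0.25 in knockout 2. One was called higher, Cox4i2, and 1 lower, Cox6a2, both isoform genes of complex IV, where 3.01% and 1.24% of all genes were called. In litters 1 and 2, 7 of the 41 were called lower and 1 higher, where 3.21% and 4.92% of all genes were; the 7 comprised 3 of complex II, 2 of complex III and 1 each of complexes IV and V. Medians were -0.29 over 4 genes of complex II and -0.25 over 9 of complex III, and -0.10 for complexes IV and V over 14 each. Of the 2 genes set aside by the rule, Ndufa4, now counted with complex IV, fell by 0.54 on the log2 scale (limma adjusted p = 0.0088), and Ndufa4l2, its HIF-induced relative, rose by 4.01 (limma adjusted p = 0.00051) from 1.65 ± 0.97 (SD, n = 3) to 34.3 and 46.1.

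Markers of other cell types moved alongside these values. None of the 8 cardiomyocyte markers was called, and their median was -0.21. Their median deviation was -0.11 in knockout 1 and -0.20 in knockout 2, beside 0.16, 0.01 and -0.13 in controls 1 to 3. Knockout 1 thus lay within the control range and knockout 2 below it. By the 5-library test, which called 3.01% of all genes higher, smooth muscle markers rose for 3 of 4 (Acta2, Tagln and Cnn1). Myh11, the other marker of that list, was very low and was not called. It had 0.67, 0.92 and 3.88 in controls 1 to 3 and 1.37 and 1.66 for knockouts 1 and 2. The 4 smooth muscle markers summed to 1215 to 1540 in the controls, 2448 in knockout 1, 2435 in knockout 2 and 1301 in knockout 3. Epicardial markers rose for 2 of 5, with sums of 239.8 to 322 in the controls and 436 and 393 for knockouts 1 and 2. Endothelial and endocardial markers rose for 1 of 7, atrial ones for 1 of 3 (Myl7), and of the mesenchymal, erythroid and macrophage lists 0 of 5, 0 of 6 and 0 of 4 were called. Erythroid markers summed to 2644 in knockout 1 and 4851 in knockout 2, within the control range of 2357 to 5328. Sln of the atrial list and Ptprc of the macrophage list had no row and are not counted. No measured marker was at 0 in any library. The part of these cell types in the lower complex I values was not tested.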

How the data were processed

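Polyadenylated RNA of 6 single embryonic ventricles was sequenced as single reads of 75 bp from TruSeq libraries, per the labels' protocols. The submitters' processing notes name CASAVA 1.8.2, cutadapt 1.3, RSEM 1.2.3 and GRCm38; for the annotation release, filter and scaling, the entry is "not given in the sources used here". In the table, the deposited signal was whole reads divided by 1 factor per library: 100% of values were whole multiples of 1 step, within 0.01 reads, and each factor matched edgeR's TMM-scaled library size. Low genes had been filtered out: no deposited gene reached 1 in fewer than 3 libraries, and all 45 members exceeded 1 in every library. A symbol was found for 13675 of 13843 genes in GENCODE M21.

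The main test was limma 3.58.1 with trend (R 4.3.3) on log2(value + 1), controls 1 to 3 against knockouts 1 and 2, adjusted over all genes at 0.05, with 3 residual degrees of freedom; folds on this scale understate changes of low genes. Leaving out knockout 3 for its Vhl value makes the Vhl difference partly circular. The p-values of limma rest on the spread between single embryos, with each gene's variance drawn toward a trend over all genes. They thus do not measure a gene's own spread alone. This sharing weighs more in the fit of litters 1 and 2, which leaves 1 degree of freedom per gene. The pairing of litters 1 and 2 comes from the labels, though the design text speaks of 3 litters and the labels of 4. Deviations from the group means correlated at 0.32 within litter 1 and 0.24 within litter 2. Knockouts 1 and 2 were centred on their shared mean, so their deviations mirror each other. The crossed pairs thus had -0.32 and -0.24 by construction, and the 2 values are not separate checks of the pairing. edgeR 4.0.16 and DESeq2 1.42.0 were run on the recovered reads. The scripts were tested on simulated data. RSEM divides reads among similar loci.

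The members and lists were chosen with earlier results of these data known. Named genes were Vhl, Hif1a, members called in the 5-library or litter fit, the 12 members with the smallest p, the core subunits, the Ndufaf genes, the 3 highest and 3 lowest subunits per kb, Ndufa4, Ndufa4l2, and called genes of the context lists. Ndufs4, Ndufa7, Ndufb7, Acad9, Ecsit, Ppargc1a, Ppargc1b and Myh11 were named after their values were seen. The values of 1 member are not reported here by name; it is counted in the totals.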

Additional observations from a re-analysis of the deposited data

How the results depend on the processing

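Members called higher numbered 1, and 0 with all 6 libraries, 0 with limma without trend, and 0 to 1 on leaving out 1 library. Members called lower numbered 0, 2 with the replicate block (litters 1 and 2 alone, or all 6 libraries), and 1 with DESeq2; edgeR called 1 higher and 0 lower, and leaving out 1 library gave 0 lower each time. The replicate block is used because litters 1 and 2 hold both groups. Control 3 and knockout 3 are alone in their litters. The block over all 6 libraries therefore gives the same estimates as litters 1 and 2 alone and is not a separate check. The median log2 difference of the members, -0.11, ranged from -0.224 to -0.0104 on leaving out 1 library, the last without knockout 2. The matrix minus membrane arm median, -0.06, was -0.0863 with Ndufab1 counted in the matrix arm and ranged from -0.0904 to -0.0536 on leaving out 1 library. The subunit minus assembly factor median, 0.03, was 0.0153 with all 6 libraries, 0.0481 with the replicate block, 0.0199 with a pseudocount of 3, 0.0443 with edgeR and 0.0448 with DESeq2. On leaving out 1 library it ranged from -0.0292 (without knockout 1) to 0.172 (without knockout 2).

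Some uncalled members changed sign. Ndufaf3 was -0.0599 with the replicate block and -0.0066 with library totals, and Ndufb4 -0.0903 and -0.0031; Ndufaf8 was 0.0046 with all 6 libraries. On leaving out 1 library, ranges were -0.0803 to 0.0933 for Ndufaf3, -0.0903 to 0.0846 for Ndufb4, -0.17 to 0.0723 for Ndufaf8, -0.243 to 0.069 for Ndufaf1, -0.155 to 0.0379 for Ndufb2, -0.263 to 0.0474 for Ndufb5 and -0.18 to 0.0058 for Ndufs3. Over the named Nduf genes (Ndufa4 and Ndufa4l2 included), 401 values under alternatives kept direction and side of the threshold, 9 fell under it, 5 passed it and 17 changed sign. These counts include the replicate block in both its forms, which share their estimates. The causes were not tested. Using the union of exons for per-kb levels was chosen after seeing the data. With 3 and 2 embryos, differences as small as those of most members were not detectable, and Ndufaf8, the lowest member, rested on 56 reads in control 3.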
